A study of Mus musculus with 6 samples.

Results

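The extracellular matrix genes of the embryonic brain were compared between 3 wild-type and 3 Foxf2 mutant whole brains, each hybridised to 1 Affymetrix array. The list held 40 genes of basement membranes, collagens, proteoglycans and their partners, and every probe set annotated to exactly 1 gene was taken where that gene was on the list. This gave 88 probe sets of 39 genes, out of 45037 probe sets and 18193 singly named genes in all. Fbn1 had no singly annotated probe set in the table used here. All brains came from E18.5 embryos, late in gestation, on a C57/bl6 background, and the labels give the genotypes as Wt and Foxf2 Mutant without naming the allele. The labels do not say whether embryos shared a litter or whether a sample pooled embryos, and the p-values therefore rest on sample-to-sample spread that may be technical.

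Basement membranes are thin sheets built from networks of laminin and type IV collagen, which nidogens and the heparan sulfate proteoglycans perlecan and agrin link together. In the brain they wrap the capillaries, where endothelial cells, pericytes and astrocyte endfeet share them, and they seal the pial surface under the meninges. Fibrillar collagens and small leucine-rich proteoglycans are made mainly by fibroblasts of the meninges and vessel walls, while the neural tissue itself is filled by hyaluronan with the lecticans neurocan, brevican and versican and the glycoprotein tenascin-R. Foxf2 is a forkhead factor of brain pericytes, and the comparison asks which transcripts differ when it is mutated.

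Values are MAS5 intensities, the brightness of a probe set in arbitrary units, and differences are mutant minus wild type on the scale log2(intensity + 16). Foxf2 read 18.6, 24.4 and 13.8 on wild-type arrays 1, 2 and 3 and 8.06, 3.31 and 7.57 on the mutant arrays, and its mean lay below the filter for dim probe sets, so it was not tested. The summed level of 8 neuronal markers was 15880 to 16140 in wild type and 15820 to 16110 in the mutant. Markers of skeletal muscle, of cartilage and bone and of the pituitary stood out on 2 arrays. Markers of skeletal muscle summed to 2268 on mutant array 3 against 117 to 139 on the other arrays, and those of cartilage and bone to 441 against 133 to 184. Pituitary markers summed to 1999 on wild-type array 3, 297 on mutant array 3 and 58.7 to 84.1 elsewhere. Choroid plexus markers summed to 6123 to 6911 in wild type and 6973 to 7309 in the mutant, without overlap. Most of that sum was Ttr, at 5741 to 6321 and 6420 to 6732. All 7 tested choroid plexus markers read higher, where 48.3% of all tested genes did, and 0 passed the test. Each of the 7 was lowest on wild-type array 3. Only Ttr lay higher without overlap. In each of the others, wild-type arrays 1 and 2 lay within or above the range of the mutant arrays. Kcnj13, for example, read 82.2, 106 and 48.9 in wild type and 75.5, 85.7 and 82.8 in the mutant. The part of choroid plexus in the matrix values was not tested. In whole-brain RNA, fewer cells of a type and less RNA per cell cannot be told apart.

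No matrix gene passed the test across the whole table. Of the 40 genes, 38 had a probe set bright enough to be tested, with 69 probe sets between them, and 0 of the 69 reached an adjusted p of 0.05 (limma, Benjamini-Hochberg over 27022 probe sets), where 0.389% of all tested probe sets did (0.366% higher and 0.0222% lower in the mutant). The smallest adjusted p was 0.106, for Col6a2. At an unadjusted p under 0.05 there were 6 member probe sets, 4 higher and 2 lower in the mutant, which is 8.70% against 13.6% of all tested (7.76% higher and 5.79% lower). The 3 mutant values lay wholly above or below the 3 wild-type values in 8 of the 69, or 11.6%, against 20.2% of all tested. Of the 8, 6 were higher and 2 lower, where 10.9% and 9.38% of all tested were. Both shares lay below the background, so these counts set the matrix genes apart in neither direction. Without regard to any threshold, 49 of the 69 probe sets read higher, where 48.6% of all tested did. The 95% confidence interval of a leading probe set, the one with the highest mean of its gene, reached a median of 0.25 log2 units to either side, with a range of 0.15 to 0.41. A difference smaller than its interval could not be told from 0 with 3 arrays a group. These intervals are not adjusted for the number of probe sets. Larger differences also failed the adjusted threshold, such as 0.39 for Col6a2, so it does not exclude differences of that size.

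**Figure D1:**
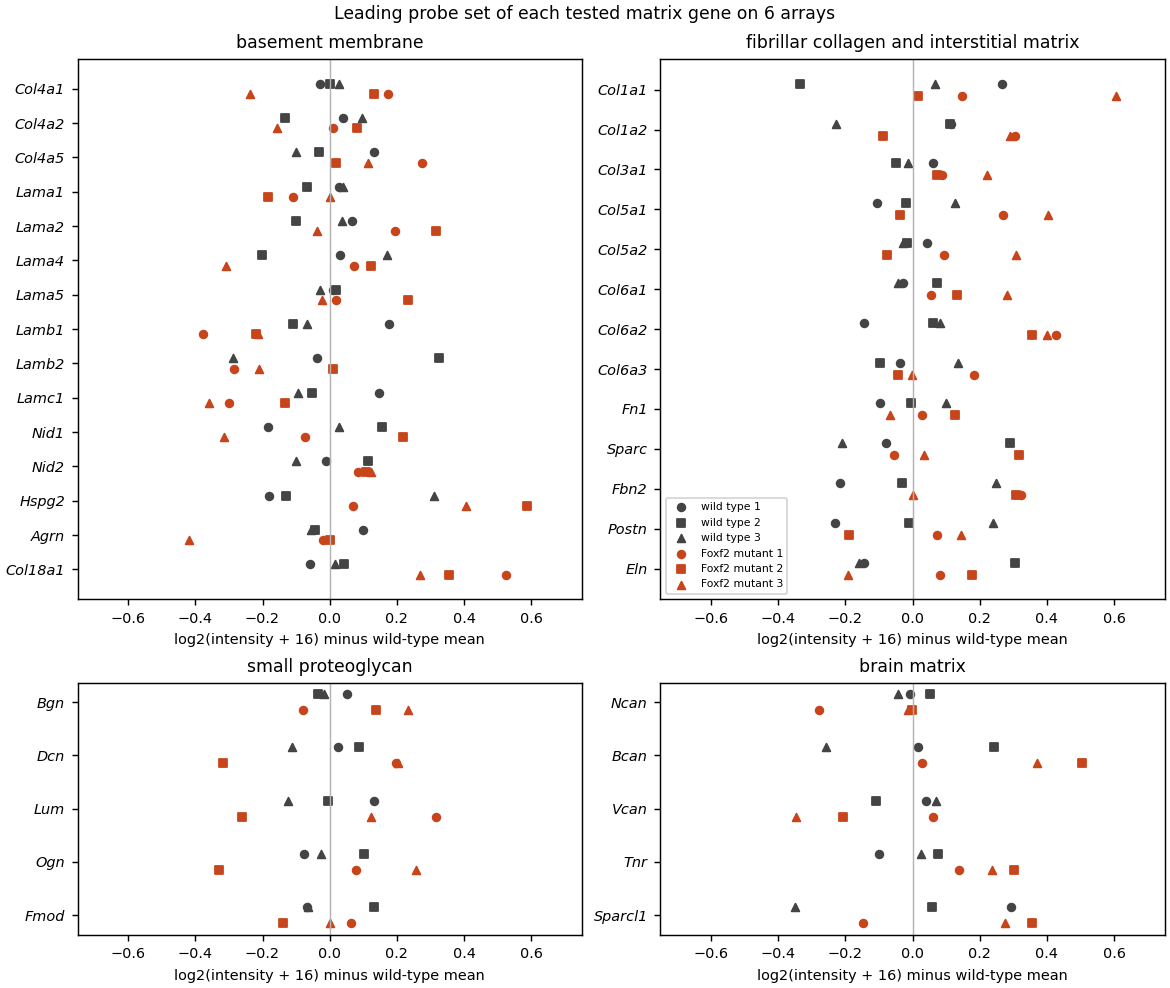
Each point is 1 array, plotted as log2(intensity + 16) minus the wild-type mean of that gene, for the leading probe sets of the 38 tested matrix genes in 4 classes, wild type in dark grey and Foxf2 mutant in orange-red. Col18a1 and Col6a2 lay higher on all 3 mutant arrays and Lamb1 and Lamc1 lower, while in most other genes the groups overlapped.

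Of the laminin genes, Lamb1 and Lamc1 read lower on all 3 mutant arrays, though neither passed the threshold. Laminins are trimers of an alpha, a beta and a gamma chain, and Lamb1 and Lamc1 encode the beta and gamma chains shared by most laminins of early basement membranes. The leading Lamb1 probe set read 365, 296 and 306 on the wild-type arrays and 243, 274 and 274 on the mutant arrays. All 3 mutant values lay below the wild-type values, with a log2 difference of -0.27 ± 0.09 (SE) and an adjusted p of 0.260 by limma. Lamb1 was not uniform over its probe sets, since a dimmer one had 0.18 and another -0.05. Lamc1 read 118, 101 and 97.6 in wild type and 82.4, 94.4 and 78.4 in the mutant. Its groups did not overlap either, with a difference of -0.26 ± 0.11 (SE) and an adjusted p of 0.327. The alpha chains, which give a laminin its tissue character, showed no common direction. Lama1, an alpha chain of the pial membrane, had -0.10, Lama2, an alpha chain laid down by astrocytes, 0.16, and the endothelial alpha chains Lama4 and Lama5 had -0.04 and 0.08. Lamb2, a beta chain found at synapses and vessels, had -0.16. These 5 were not past the threshold, and the sign of Lama4 turned in 3 of 15 alternatives and that of Lama5 and of Lamb2 in 1 each.

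Endothelial markers also summed lower on the mutant arrays. The sum of the 12 was 1160 to 1217 in wild type and 975 to 1053 in the mutant, without overlap, though 0 of the 12 passed the test, 4 read higher and the median difference was -0.06. The tight junction gene Cldn5 had a difference of -0.43 and the VEGF receptor gene Kdr of -0.41, while Pecam1, an adhesion molecule of all endothelium, had 0.02. Cldn5 and Kdr had the largest differences of the list. Without them the other 10 summed to 618 to 673 in wild type and 589 to 656 in the mutant, which overlap. Of the 12, 5 lay lower in the mutant without overlap and 0 higher, where 9.38% and 10.9% of all tested probe sets did. Besides Cldn5 and Kdr these were Tek, Egfl7 and Esam, with -0.26, -0.17 and -0.12. Pericyte markers summed to 1463 to 1820 and 1401 to 1638. Of the 9 tested, 0 passed, 6 read lower and 3 higher, with a median difference of -0.05. At an unadjusted p under 0.05 by limma, 2 were lower and 0 higher, where 5.79% and 7.76% of all tested probe sets were. These 2 were Pdgfrb, with -0.25, and Atp13a5, with -0.51. The same 2 lay lower in the mutant without overlap, and 1 pericyte marker, Ndufa4l2 with 0.27, lay higher without overlap. Of all tested probe sets, 9.38% lay lower and 10.9% higher without overlap. The part of either cell type in the laminin values was not tested. The RefSeq promoter window of Lamb1, from 250 bases before to 50 after the gene start, is shown as that of the laminin gene with the smallest p, and Lamc1 was not in the promoter table used here. Capitals mark every match, on either strand and with overlaps allowed, to any of 4 motifs. These are the forkhead core, spelled TAAACA, and the GC box, spelled GGGCGG. The other motifs are the TATA box, spelled TATAAA, and the CCAAT box, spelled as its name. The Lamb1 window (GRCm38.p6, chr12:31265043-31265342, plus strand) held 1 CCAAT box and 2 GC boxes.
Lamb1: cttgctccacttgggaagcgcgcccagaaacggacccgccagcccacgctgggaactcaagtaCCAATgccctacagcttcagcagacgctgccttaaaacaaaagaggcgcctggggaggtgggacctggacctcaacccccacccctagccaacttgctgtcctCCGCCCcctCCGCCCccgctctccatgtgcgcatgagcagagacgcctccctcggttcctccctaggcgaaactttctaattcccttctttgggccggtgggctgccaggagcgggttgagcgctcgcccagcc

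The type IV collagens, the network formers of every basement membrane, showed no separation of the genotypes. Col4a1 read 535, 548 and 558 in wild type and 619, 601 and 462 in the mutant, so that mutant array 3 was the lowest and mutant array 1 the highest of the 6. Its log2 difference was 0.02, with a 95% interval of -0.21 to 0.26, and a dimmer probe set had 0.12. Col4a2, whose chain pairs with that of Col4a1 in 1 trimer, read 325, 287 and 339 against 318, 335 and 282, a difference of -0.02 with an interval of -0.23 to 0.18. Both were singled out after their values were seen, because the genes start on opposite strands of chromosome 8 only 21 bases apart in RefSeq, where the first bases of each overlap the other. The direction of either turned with the setting or the array left out, from -0.05 to 0.17 for Col4a1 and from -0.09 to 0.09 for Col4a2. Col4a5, a chain of a rarer type IV network, had 0.14. The Col4a1 window, which also covers the start of Col4a2, held 1 CCAAT box and 1 GC box (GRCm38.p6, chr8:11312777-11313076, minus strand).
Col4a1: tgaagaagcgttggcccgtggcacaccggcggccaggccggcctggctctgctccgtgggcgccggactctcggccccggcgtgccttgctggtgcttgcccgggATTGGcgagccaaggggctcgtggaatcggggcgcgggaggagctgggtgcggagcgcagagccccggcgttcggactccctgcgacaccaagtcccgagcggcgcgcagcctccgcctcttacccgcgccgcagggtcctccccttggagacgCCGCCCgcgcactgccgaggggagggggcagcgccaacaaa

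Col18a1 read higher on every mutant array. It encodes a collagen with heparan sulfate chains whose C-terminal fragment is endostatin, an inhibitor of angiogenesis. Its leading probe set gave 55.0, 60.2 and 58.8 in wild type and 90.3, 78.5 and 73.1 in the mutant. The groups were well apart, with means of 58.0 ± 2.68 and 80.6 ± 8.80 (SD, n = 3) and a log2 difference of 0.38 ± 0.11 (SE), and the adjusted p by limma was 0.180, short of the threshold. The other tested probe set read 46.3, 42.3 and 56.2 against 62.5, 37.4 and 39.1, a difference of -0.06. There the groups overlapped, and mutant arrays 2 and 3 were the lowest. Col18a1 is known to have a short and a long form from separate promoters, and RefSeq has a window for each. Which form each probe set reads was not tested. Both windows are shown because of this disagreement. The upstream one (GRCm38.p6, chr10:77166481-77166780, minus strand) held 1 CCAAT box and 3 GC boxes, and the downstream one (chr10:77113656-77113955, minus strand) held 0 of any motif searched.
Col18a1 upstream: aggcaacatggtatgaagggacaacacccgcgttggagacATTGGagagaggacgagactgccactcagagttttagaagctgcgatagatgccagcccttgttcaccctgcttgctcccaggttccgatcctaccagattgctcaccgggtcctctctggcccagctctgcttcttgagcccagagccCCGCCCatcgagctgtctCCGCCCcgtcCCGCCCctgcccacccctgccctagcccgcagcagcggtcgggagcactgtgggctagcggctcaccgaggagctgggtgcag
Col18a1 downstream: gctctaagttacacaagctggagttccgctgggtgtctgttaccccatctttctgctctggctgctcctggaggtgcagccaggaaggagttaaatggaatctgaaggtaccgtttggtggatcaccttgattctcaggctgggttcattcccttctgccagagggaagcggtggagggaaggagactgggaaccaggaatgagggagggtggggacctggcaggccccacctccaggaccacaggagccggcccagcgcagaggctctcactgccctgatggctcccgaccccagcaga

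The linkers of the basement membrane overlapped between the groups. Hspg2, which encodes perlecan, read 49.6, 52.0 and 76.2 in wild type and 62.0, 95.7 and 82.4 in the mutant. Wild-type array 3 lay inside the mutant range, and the difference of 0.35 ± 0.17 (SE) had an adjusted p of 0.413, while the other Hspg2 probe set had -0.04. Agrn, agrin of capillary and synaptic membranes, read 957, 866 and 858 against 881, 893 and 664, a difference of -0.15, with mutant array 3 the lowest. The nidogen genes Nid1 and Nid2 had -0.06 and 0.10. Over the 15 basement membrane genes, 7 leading probe sets read higher and 8 lower, with a median of -0.02 against -0.01 over all 12573 tested genes. Without mutant array 3 the split was 10 higher and 5 lower and the median 0.10, and with median centring it was 6 higher. At an unadjusted p under 0.05 there were 3 of 24 tested probe sets, or 12.5% against 13.6% of all tested, namely Col18a1, Lamb1 and Lamc1.

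**Figure D2:**
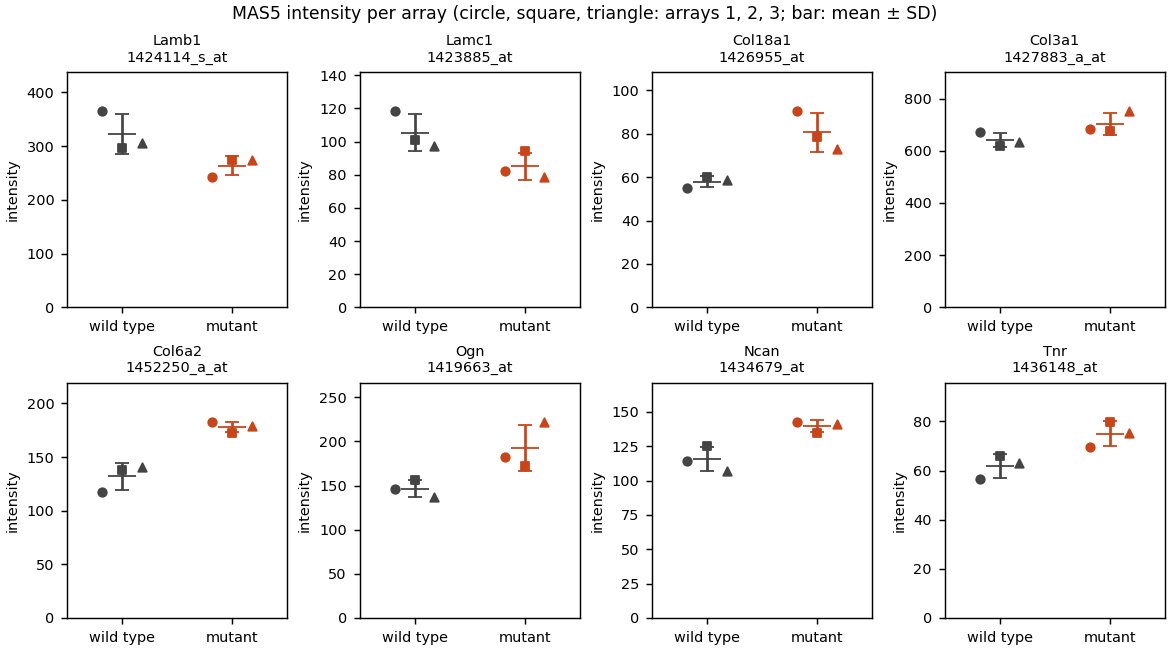
MAS5 intensity on each array for the 8 tested matrix probe sets with an unadjusted p under 0.05 or with groups that did not overlap, with bars for the mean ± SD of 3 arrays. Lamb1 and Lamc1 sit lower in the mutant and the other 6 higher, and none passed an adjusted p of 0.05.

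The fibrillar and interstitial matrix genes read slightly higher in the mutant, with none past the threshold. Of the 14 genes, 13 were tested, and all 13 leading probe sets had a positive difference, where 48.3% of all tested genes did. The 13 genes were read on the same 6 arrays, so they are not 13 independent observations. The median intensity of an array was 23.1 to 23.6 in wild type and 24.3 to 25.5 in the mutant. With median centring 9 of 13 were positive, against 35.3% of all tested genes, and leaving out 1 array at a time gave 10 to 12. The median was 0.13 log2 units, with a range of 0.01 to 0.39. None of the 13 passed the test, and 1 of 22 tested probe sets, or 4.55% against 13.6% of all tested, had an unadjusted p under 0.05.

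Col6a2 had the smallest p of the matrix genes. It encodes a chain of the beaded filament collagen VI, which anchors basement membranes to the surrounding interstitium. It read 118, 138 and 140 in wild type and 183, 173 and 179 in the mutant. The group means were 132 ± 12.4 and 178 ± 5.02 (SD, n = 3), and all 3 mutant values lay above the wild-type ones. The log2 difference was 0.39 ± 0.09 (SE), with an adjusted p of 0.106 by limma that ran from 0.0779 to 0.337 over the alternatives, none of which made it pass. The second Col6a2 probe set, of suffix _x_at, read 73.3, 73.7 and 79.6 against 84.3, 73.4 and 89.8, a difference of 0.10. The partner chains of the same trimer had 0.16 for Col6a1 and 0.05 for Col6a3. The Col6a2 promoter is shown for this reason. RefSeq has 2 overlapping windows, and the one with the later start (GRCm38.p6, chr10:76623355-76623654, minus strand) held 3 GC boxes.
Col6a2: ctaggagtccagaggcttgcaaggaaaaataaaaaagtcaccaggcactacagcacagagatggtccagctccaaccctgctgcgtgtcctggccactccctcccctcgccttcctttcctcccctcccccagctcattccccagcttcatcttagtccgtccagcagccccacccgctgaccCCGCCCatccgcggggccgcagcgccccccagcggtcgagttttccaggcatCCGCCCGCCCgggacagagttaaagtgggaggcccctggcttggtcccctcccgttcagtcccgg

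Among the collagens of connective tissue fibres the groups mostly overlapped. Col1a1, a chain of type I collagen, read 153, 95.5 and 131 in wild type and 139.5, 126 and 198 in the mutant, with mutant array 3 the highest. Its difference of 0.26 (adjusted p = 0.581 by limma) was 0.08 without mutant array 3. Without wild-type array 2, the lowest of the 6, it was 0.09. Col1a2, the other chain of that trimer, read 442, 441 and 345.5 against 507, 382 and 501, a difference of 0.17, which was -0.004 without both arrays 3. Col3a1, type III collagen of vessel walls, read 670, 619 and 635 against 682, 675 and 751. Its groups just failed to overlap, since 670 lay below 675, with a difference of 0.13 and an adjusted p of 0.450. Col5a1 and Col5a2, chains of the type V collagen that seeds fibrils, had 0.21 and 0.11.

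The glycoproteins around these fibres gave overlapping values. Fbn2, a fibrillin of embryonic microfibrils, read 65.2, 76.2 and 95.9 against 102, 101 and 78.4, a difference of 0.21, while its other probe set had 0.00. Fn1, fibronectin, had 0.03, with wild-type values of 328 to 378 and mutant values of 335 to 385. Sparc, a collagen-binding protein abundant in brain endothelium, read 1009, 1306 and 919 against 1026, 1331 and 1092, a difference of 0.10. Postn, periostin of fibroblasts, had 0.01 and Eln, elastin of arterial walls, 0.02. Postn, Eln, Sparc, Fn1, Col6a3, Col1a2 and Col5a2 read lower in at least 1 alternative.

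The interstitial and small proteoglycan classes were highest on mutant array 3. The median deviation of the 13 interstitial genes from their wild-type mean was -0.08, -0.01 and 0.07 on the wild-type arrays and 0.09, 0.07 and 0.22 on the mutant arrays. Mutant array 3 was the highest of the 6 arrays for 5 of these 13 genes. The lowest mutant and the highest wild-type array lay nearly level. Without mutant array 3 the class median was 0.09, and without both arrays 3 it was 0.07. Mutant array 3 is also the one on which muscle, cartilage and bone markers stood out. Those markers include the cartilage collagens Col2a1, at 141 there against 18.6 to 48.5 on the other arrays, and Col9a1, at 111 against 28.4 to 41.0. Their differences were 0.43 and 0.46. In the 15 other collagens of a wider list, which again include Col2a1 and Col9a1, 14 leading probe sets read higher and 7 were highest on mutant array 3. Meningeal fibroblast markers summed to 5480 to 5864 on the wild-type and 5471 to 6194 on the mutant arrays, and 0 of 13 tested passed. Of the 13, 9 read higher, with a median difference of 0.12. Without overlap, 2 lay higher and 0 lower, where 10.9% and 9.38% of all tested probe sets did. Without Ptgds, the brightest of them, which had a difference of -0.03, the sums were 2733 to 2799 and 3012 to 3192, without overlap. Ptgds was left out after its values were seen. With Zic1, the next brightest, left out too, they were 1292 to 1383 and 1390 to 1428. The part of muscle, cartilage and meninges in the collagen values was not tested.

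**Figure D3:**
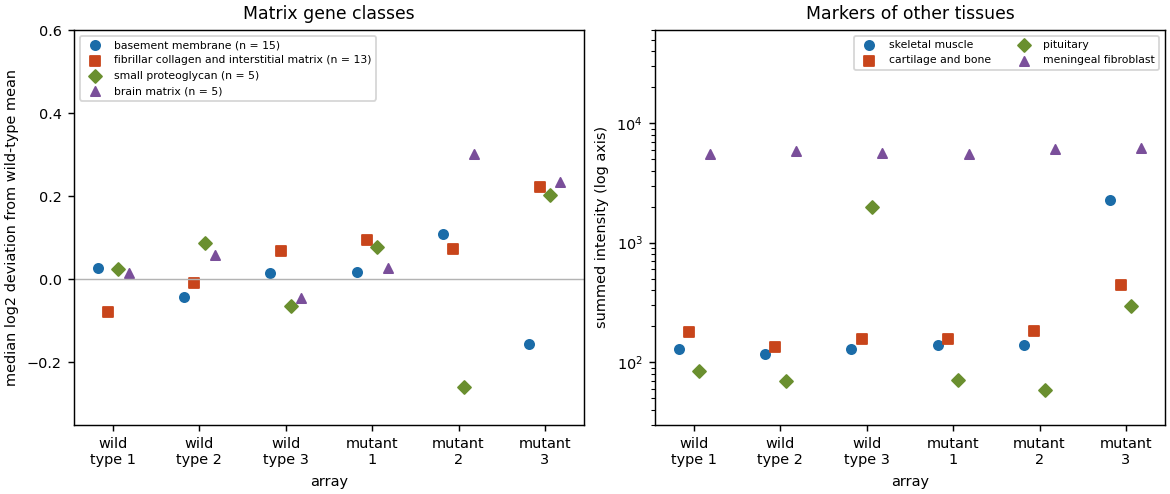
Left, the median deviation of each matrix class from its wild-type mean on each array, in log2 units. Right, the summed intensity of markers of other tissues on each array, on a log axis. The interstitial class is highest (0.22) on mutant array 3, where muscle markers sum to 2268.

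**Figure D4:**
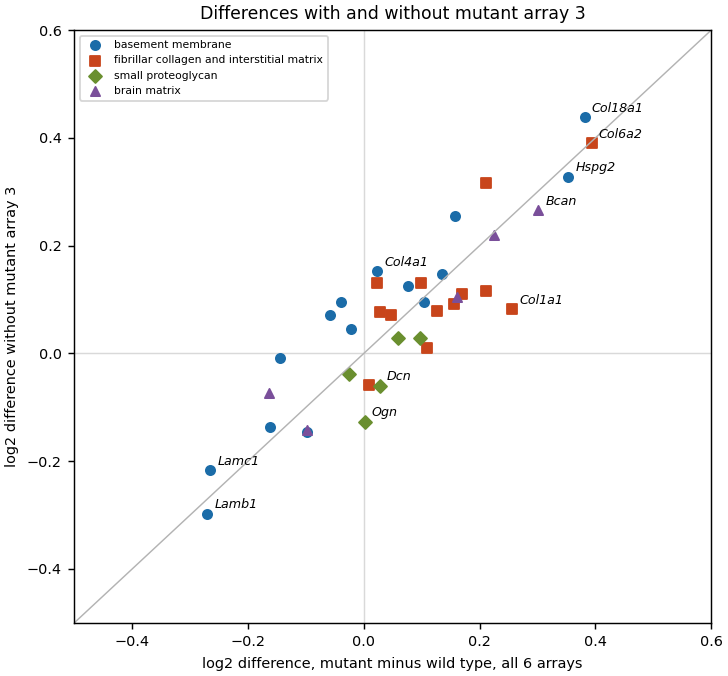
The log2 difference of the leading probe set of each of the 38 tested genes with all 6 arrays (horizontal) and without mutant array 3 (vertical), with a line of equality. Lamb1, Lamc1, Col18a1 and Col6a2 lie near the line, and Col1a1 falls from 0.26 to 0.08.

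The small leucine-rich proteoglycans, which bind collagen fibrils and set their spacing, showed no common shift between the genotypes. Of the 5 leading probe sets 4 read higher and 1 lower, with a median of 0.03, and with median centring 2 read higher. The 3 mutant arrays disagreed. Dcn, decorin, read 365, 382 and 330 in wild type and 413, 285 and 415 in the mutant, so that mutant array 2 was lowest and mutant arrays 1 and 3 highest. Lum, lumican, read 121, 108 and 98.5 against 139.5, 88.3 and 120, a difference of 0.06. Mutant array 2 was the lowest of all 6 arrays for 4 of the 5 genes, and the class median there was -0.26, against 0.08 and 0.20 on mutant arrays 1 and 3. Without mutant array 2 the class difference was 0.17, and without mutant array 1 it was -0.06.

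Ogn was the exception on 1 of its probe sets. It encodes osteoglycin, also called mimecan. The dimmer probe set read 146, 156 and 137 in wild type and 182, 172 and 222 in the mutant, without overlap. The difference was 0.35 ± 0.10 (SE), with an adjusted p of 0.195 by limma. The brighter probe set read 186, 213 and 193 against 208, 153 and 238, a difference of 0.001 whose sign turned in 7 of 15 alternatives. Bgn, biglycan, read 177, 166 and 168 against 160, 188.5 and 203, a difference of 0.10, and its other probe sets had -0.04 and 0.12. Fmod, fibromodulin, had 6 tested probe sets, from -0.13 to 0.27, and its leading one had -0.02. Among all 13 tested probe sets of these 5 genes, 1 had an unadjusted p under 0.05, or 7.69% against 13.6% of all tested.

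The matrix of the neural tissue itself went both ways. Ncan, neurocan, read 3137, 3265 and 3055 in wild type and 2593, 3145 and 3120 in the mutant on its leading probe set, a difference of -0.10. A dimmer Ncan probe set read 115, 125 and 107 against 143, 135 and 141. There the groups did not overlap, with a difference of 0.24 ± 0.09 (SE) and an adjusted p of 0.273, opposite in direction to the leading one, and the remaining one had 0.13. Tnr, tenascin-R of perineuronal nets, read 56.5, 65.9 and 63.1 against 69.6, 79.8 and 75.5. All 3 mutant values were higher, with a difference of 0.22 ± 0.10 (SE) and an adjusted p of 0.389. Vcan, versican, the lectican of the early brain, read 641, 577 and 655 against 650, 537.5 and 487, a difference of -0.16, and its other tested probe sets had -0.08 and 0.03.

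The leading probe sets of Bcan and Sparcl1 were ordered over some arrays as the astrocyte markers were. Bcan, brevican, read 509, 598.5 and 418 in wild type and 513.5, 721 and 655.5 in the mutant on its leading probe set, of suffix _x_at. The difference was 0.30 ± 0.15 (SE) with an adjusted p of 0.413 by limma. Its other probe set had -0.004 and was lowest on mutant array 1, at 95.8 against 98.6 on wild-type array 3. Sparcl1, an astrocyte protein also called hevin, read 1573, 1335 and 1001 against 1156, 1645 and 1553, a difference of 0.16. Both leading probe sets were lowest on wild-type array 3 and highest on mutant array 2. The 8 astrocyte and radial glia markers summed to 7941, 8527 and 7370 on the wild-type arrays and 7904, 9132 and 8624 on the mutant arrays, also lowest on wild-type array 3 and highest on mutant array 2. Their part in the Bcan and Sparcl1 values was not tested. The class median of 0.16 over 5 tested genes was -0.01 without wild-type array 3. Hapln1, a link protein that ties lecticans to hyaluronan, had 4 probe sets, all too dim to be tested, with values of 0.611 to 17.1 over the 6 arrays.

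Probe sets of 1 gene often disagreed. Of 23 members with several tested probe sets, 13 had all differences in 1 direction and 10 had both directions. Col1a1, Col1a2, Col3a1, Col5a1 and Col5a2 were among those in 1 direction, with second probe sets at 0.19, 0.16, 0.18, 0.18 and 0.14. The spread within a group was wider for the mutant, with a median SD of 0.17 log2 units over the 69 tested matrix probe sets against 0.11 in wild type. Over all tested probe sets the medians were 0.128 and 0.115.

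The motifs were counted in every promoter window of the list. RefSeq windows were found for 28 of the 40 genes, 32 in all. The forkhead core TAAACA was in 3 of 32, those of Col3a1, Col6a1 and Sparc, against 13.4% of all 32851 windows of 300 bases. The CCAAT box was in 11 of 32 against 37.4%, the GC box in 20 of 32 against 35.7%, and the TATA box in 4 of 32 against 13.6%. A match is no evidence of binding, and these shares were not tested.

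No gene of the wider matrix lists passed either. In 7 lists of 114 further matrix genes, 94 were tested and 0 passed (limma), against 0.389% of all tested probe sets. At an unadjusted p under 0.05 there were 8 higher and 2 lower of the 94, where 7.76% and 5.79% of all tested probe sets were, so the higher count is near the background. Mmp9, a protease that cleaves type IV collagen, was nearest to the threshold of them. It read 39.4, 50.3 and 39.3 in wild type and 15.9, 17.2 and 22.4 in the mutant. The groups were far apart, with a difference of -0.77 ± 0.14 (SE) and an adjusted p of 0.0652. Timp1, an inhibitor of such proteases, had 0.33.

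The remaining lists had their largest differences as follows, none past the threshold. Of 15 other basement membrane genes Col4a4 had -0.23 and Fras1, a gene of the embryonic epidermal membrane, 0.20. Among 15 collagen processing genes Loxl3, a lysyl oxidase, had 0.27 and Pcolce, an enhancer of procollagen cleavage, 0.22. Elastic fibre and related genes, 15 tested, had Tgfbi at 0.48 and Mfap4 at -0.37. Mfap2, a microfibril protein named here after its values were seen, read 190, 189 and 196 against 229, 251 and 247, a difference of 0.31 (adjusted p = 0.112). The small proteoglycan Podn had 0.44 and Epyc 0.19, out of 4 tested. Of 17 other hyaluronan and proteoglycan genes Spock3, a testican of neurons, had 0.64 and the syndecan gene Sdc4 -0.56.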

How the data were processed

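The authors' deposited intensities come from MAS5, per the submitters' processing notes, and are linear; its version was not stated in what was available. Each array's deposited mean without the lowest and highest 2% was 100, so the authors had scaled the arrays, and they were not scaled again. MAS5 is noisy for dim probe sets, and scaling hides changes in total RNA. Of 45101 probe sets, 64 controls were left out. Genes came from the platform annotation and were set against RefSeq GRCm38.p6, with 0 symbols updated.

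Log2(intensity + 16) was fitted in R 4.3.3 with limma 3.58.1 (lmFit, eBayes with trend), two-sided, with Benjamini-Hochberg adjustment over 27022 probe sets at or above the 40th percentile of the mean, about 13.2. The fit was tested on simulated data. A gene was led by its brightest probe set. Values per array were given for members with an unadjusted p under 0.05 or without overlap on a tested probe set and for the 2 largest differences of each class; other members shown by array were chosen after their values were seen. From the other lists the 2 largest differences were named. Members and lists were chosen with earlier results of these data known; the markers named were chosen after their values were seen. Alternatives changed the offset, filter, scaling, variance trend and replicate block and left arrays out. With 6 arrays, their number sets the precision.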

Additional observations from a re-analysis of the deposited data

How the results depend on the processing

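Under every alternative run, 0 member probe sets passed the threshold, with smallest adjusted p from 0.0779 to 0.337. Over all probe sets, 105 passed, 181 with offset 1, 64 with offset 64, 52 without the filter, 167 with the filter at the 60th percentile, 56 with median centring, 0 without the variance trend and 12 with 1 probe set per gene. Leaving out 1 array gave 0 to 34, and leaving out both arrays 3, an alternative chosen after seeing the data as was 1 probe set per gene, gave 0. Median centring gave 89.3% of calls as higher, against 94.3%.

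The replicate number as a block gave 220 calls over the whole table and again 0 members. Deviations of same-numbered arrays correlated at 0.19, 0.13 and 0.09, and every array correlated best with its own number. The main fit did not pair the samples by number, and whether the numbers mark a shared batch was not tested. The 6 member probe sets at an unadjusted p under 0.05 were 10 of 88 without the filter, where 11.5% of all probe sets were, and 3 to 9 with 1 array left out, where 9.13% to 14.5% were. The 8 without overlap were 15 of 88 without the filter, against 17.3%, 10 to 19 with 1 array left out, where 27.5% to 33.6% of all tested probe sets were without overlap, and 24 without both arrays 3, where 42.9% were. Fewer arrays overlap less by construction.

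The basement membrane median was -0.076 with median centring, 0.0926 without both arrays 3, and -0.0545 to 0.0958 with 1 array left out. The brain matrix median was 0.108 with median centring, -0.0387 without both arrays 3, and -0.0138 to 0.268 with 1 array left out. The small proteoglycan median was -0.0703 without both arrays 3 and -0.0573 to 0.167 with 1 array left out. The cause was not tested.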

Other observations

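Of the 19 member probe sets below the filter, 7 had groups without overlap, 4 higher and 3 lower in the mutant, which is 36.8% against 13% (2334 of 18015) of all probe sets below the filter. The dimmest Sparc probe set read 6.86, 0.652 and 3.82 in wild type and 9.81, 10.2 and 13.1 in the mutant, and a dim Eln probe set fell from a mean of 14.1 to 7.97. A dim Vcan probe set had means of 11.8 and 4.70. The leading probe sets of these 3 genes had log2 differences of 0.10, 0.02 and -0.16, against 0.46, -0.34 and -0.43. Near the floor the offset of 16 sets the size of any difference, and these values were not tested.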
